A study of Mus musculus with 12 samples.

Results

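The genes described here are 10 transcripts tied to glucocorticoid signalling, namely the receptor gene Nr3c1 and 9 genes that the hormone is known to induce in 1 tissue or another (Fkbp5, Plin4, Sult1a1, Sgk1, Tsc22d3, Ddit4, Pdk4, Errfi1 and Zbtb16). They were taken by symbol from a count table of 16482 genes, and all 10 had a row. The libraries came from whole brain of C57BL/6 mice and were prepared by bulk MARS-seq, a method that reads tags near the 3' end of transcripts. The 12 libraries fell into 4 sets. Both CBE and GZ-667161 had been given to the mice of 4 libraries (postnatal day 40). CBE alone had been given in 4 libraries, of which replicates 4 and 6 were from day 40 and replicates 2 and 3 from day 34. The other 4 libraries were PBS controls of day 40. Conduritol B epoxide (CBE) irreversibly inhibits glucocerebrosidase and is used in mice as a model of neuronopathic Gaucher disease, while GZ-667161 inhibits glucosylceramide synthase, the enzyme that makes the stored lipid. It is an enzyme-inhibitor model, so no gene was deleted. The labels state no dose, injection schedule, sex or hour of collection, and no PBS library was from day 34.

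Corticosterone, the main glucocorticoid of mice, enters cells and binds the glucocorticoid receptor, which Hsp90 and its co-chaperones hold ready in the cytoplasm. The bound receptor moves to the nucleus and activates genes next to glucocorticoid response elements, a pair of half-sites facing each other across a spacer of a few bases. Fkbp5 is the best-known of these targets in brain and closes a feedback loop, because its protein lowers the affinity of the receptor for the hormone.

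Library totals ran from 1753626 to 6499257 counts, lowest in the day 34 CBE libraries. Libraries of 1 group differed beyond counting noise (chi-square per degree of freedom 3.53 to 13.3), and the labels do not say that each came from its own mouse, and the p-values rest on a spread between libraries that may be technical in part. Xist, the transcript of the inactive X chromosome, lay between 7.92 and 25.4 CPM in CBE+GZ-667161 replicates 2, 3 and 5 and PBS replicates 4 and 5, and at or under 0.545 CPM in the other 7 libraries, which include all of CBE. Ttr, a choroid plexus transcript, ranged from 11.2 to 510 CPM. Markers of neurons, astrocytes, oligodendrocytes, microglia and vessels were each detected in every group. Levels below are CPM, a gene's counts relative to its library's total after TMM scaling. Differences are log2 fold changes ± SE from edgeR's quasi-likelihood test with p adjusted by Benjamini and Hochberg over all tested genes, and a gene was called at an adjusted p under 0.05.

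Fkbp5, Sult1a1, Sgk1 and Tsc22d3 were higher in the CBE brains of day 40 than in the PBS brains, by 1.74-fold (Tsc22d3) to 5.48-fold (Fkbp5). Plin4 was also higher, but it passed the filter on low counts only through the day 40 CBE libraries. Its PBS libraries held 1 to 5 counts. Among CBE brains of day 34 the comparison with PBS called Sgk1 and Sult1a1. In the brains that received GZ-667161 with CBE, Sgk1 lay within the PBS range in all 4 libraries and Fkbp5 and Tsc22d3 in 1 of 4. Nr3c1 itself was lower in CBE brains, by a smaller amount, and Ddit4, Pdk4, Errfi1 and Zbtb16 were not called in any comparison. Leaving aside Plin4, whose place among the tested genes hung on its day 40 CBE counts, 4 of 9 genes were called higher and 1 lower in day 40 CBE against PBS, where 8.15% of all 13372 tested genes were called higher and 6.08% lower. In bulk tissue, more RNA per cell and more cells that carry the RNA cannot be told apart.

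Fkbp5 encodes a co-chaperone of Hsp90 (mm10 chromosome 17, 28399094 to 28517527, minus strand, from GENCODE M21, the source of all gene positions here). Its level was 43.9, 38.2, 29.6 and 54.8 CPM in CBE+GZ-667161 replicates 2, 3, 4 and 5, 223 and 217 CPM in the day 40 CBE libraries, 70.1 and 43.6 CPM in the day 34 CBE libraries, and 43.1, 39.0, 36.7 and 42.4 CPM in the PBS libraries. The day 40 CBE libraries stood alone, and their lower value was more than 3 times the next highest library. Day 40 CBE exceeded PBS by 2.45 ± 0.19 (5.48-fold, adjusted p = 8.5e-07). From high to low the order of means was day 40 CBE, day 34 CBE, CBE+GZ-667161 and PBS, and neither CBE+GZ-667161 and PBS nor day 34 CBE and CBE+GZ-667161 were separated, while the lower day 34 CBE library lay just above the highest PBS library.

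Plin4, whose protein coats lipid droplets (chromosome 17, 56100591 to 56109803, minus strand), had the largest relative difference of the 10 genes. It had 7, 6, 6 and 5 counts in CBE+GZ-667161 libraries, 84 and 73 counts in day 40 CBE libraries, 3 and 6 counts in day 34 CBE libraries, and 5, 2, 1 and 4 counts in PBS libraries. In CPM these were 1.26 to 2.21, 29.0 and 24.1, 1.61 and 3.27, and 0.417 to 1.33. Only the day 40 CBE libraries held more than a handful of tags. Plin4 passed the filter on low counts only through the day 40 CBE libraries, so it is left out of counts of called genes below unless stated. Its tests are given from the fit with no filter unless the filtered fit is named. With no filter the difference between day 40 CBE and PBS was 5.18 ± 0.41 (adjusted p = 2.7e-07), with its size resting on few PBS counts.

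Sult1a1, a phenol sulfotransferase gene (chromosome 7, 126672865 to 126676432, minus strand), had 20.9, 14.1, 14.0 and 15.9 CPM in CBE+GZ-667161 libraries and 68.4 and 94.8 CPM in day 40 CBE libraries. It had 29.97 and 26.7 CPM in day 34 CBE libraries and 17.8, 17.6, 16.7 and 12.9 CPM in PBS libraries. All 4 CBE libraries lay above all 8 others, and the day 40 pair lay above the day 34 pair. The difference between day 40 CBE and PBS was 2.35 ± 0.20 (5.09-fold, adjusted p = 1.3e-06). The 3' end of Sult1a1 overlaps that of Sgf29 on the opposite strand by 61 bases, and that of Plin4 overlaps Hdgfl2 by 17 bases, and no label or header says if reads were counted by strand. Those neighbours, looked up after the values were seen, stood at 0.12 ± 0.23 (Sgf29, adjusted p = 0.77) and 0.28 ± 0.13 (Hdgfl2, adjusted p = 0.16) in day 40 CBE against PBS, and the part of reads shared with them was not tested.

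Sgk1 encodes the serum- and glucocorticoid-regulated kinase (chromosome 10, 21882184 to 21999903, plus strand). Its level was 92.4, 90.1, 99.999 and 92.8 CPM in CBE+GZ-667161 libraries, 232 and 253 CPM in day 40 CBE libraries, 167 and 127 CPM in day 34 CBE libraries, and 103, 93.4, 112 and 84.5 CPM in PBS libraries. The 4 CBE libraries again lay above all others, and the spread among CBE+GZ-667161 libraries was narrow, at 93.8 ± 4.29 CPM (SD, n = 4). Day 40 CBE exceeded PBS by 1.32 ± 0.13 (2.49-fold, adjusted p = 9.8e-06).

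Tsc22d3 encodes the glucocorticoid-induced leucine zipper protein (chromosome X, 140539528 to 140600659, minus strand). Its level was 63.0, 44.1, 46.1 and 43.7 CPM in CBE+GZ-667161 libraries, 111 and 121 CPM in day 40 CBE libraries, 76.5 and 52.8 CPM in day 34 CBE libraries, and 74.7, 61.9, 60.4 and 70.4 CPM in PBS libraries. The day 40 CBE libraries were again the highest, whereas the day 34 pair straddled the PBS range. The rise at day 40 over PBS was 0.80 ± 0.17 (1.74-fold, adjusted p = 0.0053), and it was not called without CBE replicate 6 (0.74, adjusted p = 0.065).

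The promoters of the 10 genes were read to see which carry the letters of a response element. RefSeq windows of 250 bases before to 50 bases after a start site (GRCm38.p6) were used for 8 of the 10 genes, in 16 windows. None was used for Nr3c1 and Zbtb16. On both strands, a full element was searched as AGAACA, any 3 bases and TGTTCT, a looser one as GNACA, any 3 bases and TGTNC, and a half-site as AGAACA alone. Every full match also holds a looser match and a pair of half-sites, 1 on each strand. The full element occurred in 3 of 32851 windows of all genes (0.00913%), and 1 of these was a Sgk1 window (chr10:21993640-21993939, plus strand), where it began 189 bases before the start. That window and the one of Sult1a1 (chr7:126676369-126676668, minus strand), with half-sites 212 and 34 bases before the start and no element, are shown because these genes rose at both ages. The Sgk1 windows at other start sites held no full or looser element, and which start site was in use was not tested. Capitals mark the matches.
Sgk1: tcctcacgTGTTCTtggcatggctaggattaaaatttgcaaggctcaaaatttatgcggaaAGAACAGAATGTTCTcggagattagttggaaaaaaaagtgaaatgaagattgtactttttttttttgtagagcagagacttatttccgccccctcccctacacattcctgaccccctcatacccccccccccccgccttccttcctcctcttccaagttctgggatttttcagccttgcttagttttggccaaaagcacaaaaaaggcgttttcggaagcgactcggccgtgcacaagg
Sult1a1: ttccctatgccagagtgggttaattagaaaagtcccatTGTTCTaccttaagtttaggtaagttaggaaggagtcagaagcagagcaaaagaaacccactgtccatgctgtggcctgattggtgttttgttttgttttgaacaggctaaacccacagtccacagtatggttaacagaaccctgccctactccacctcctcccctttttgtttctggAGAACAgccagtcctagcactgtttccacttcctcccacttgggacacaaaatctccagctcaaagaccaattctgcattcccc
Half-sites alone were in 19.0% of all windows, so their presence in Sgk1, Sult1a1 and Tsc22d3 says little by itself. The windows of Fkbp5, Plin4, Ddit4, Pdk4 and Errfi1 held none of the 3 motifs, which says only that these letters are not in these windows. 

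**Figure D1:**
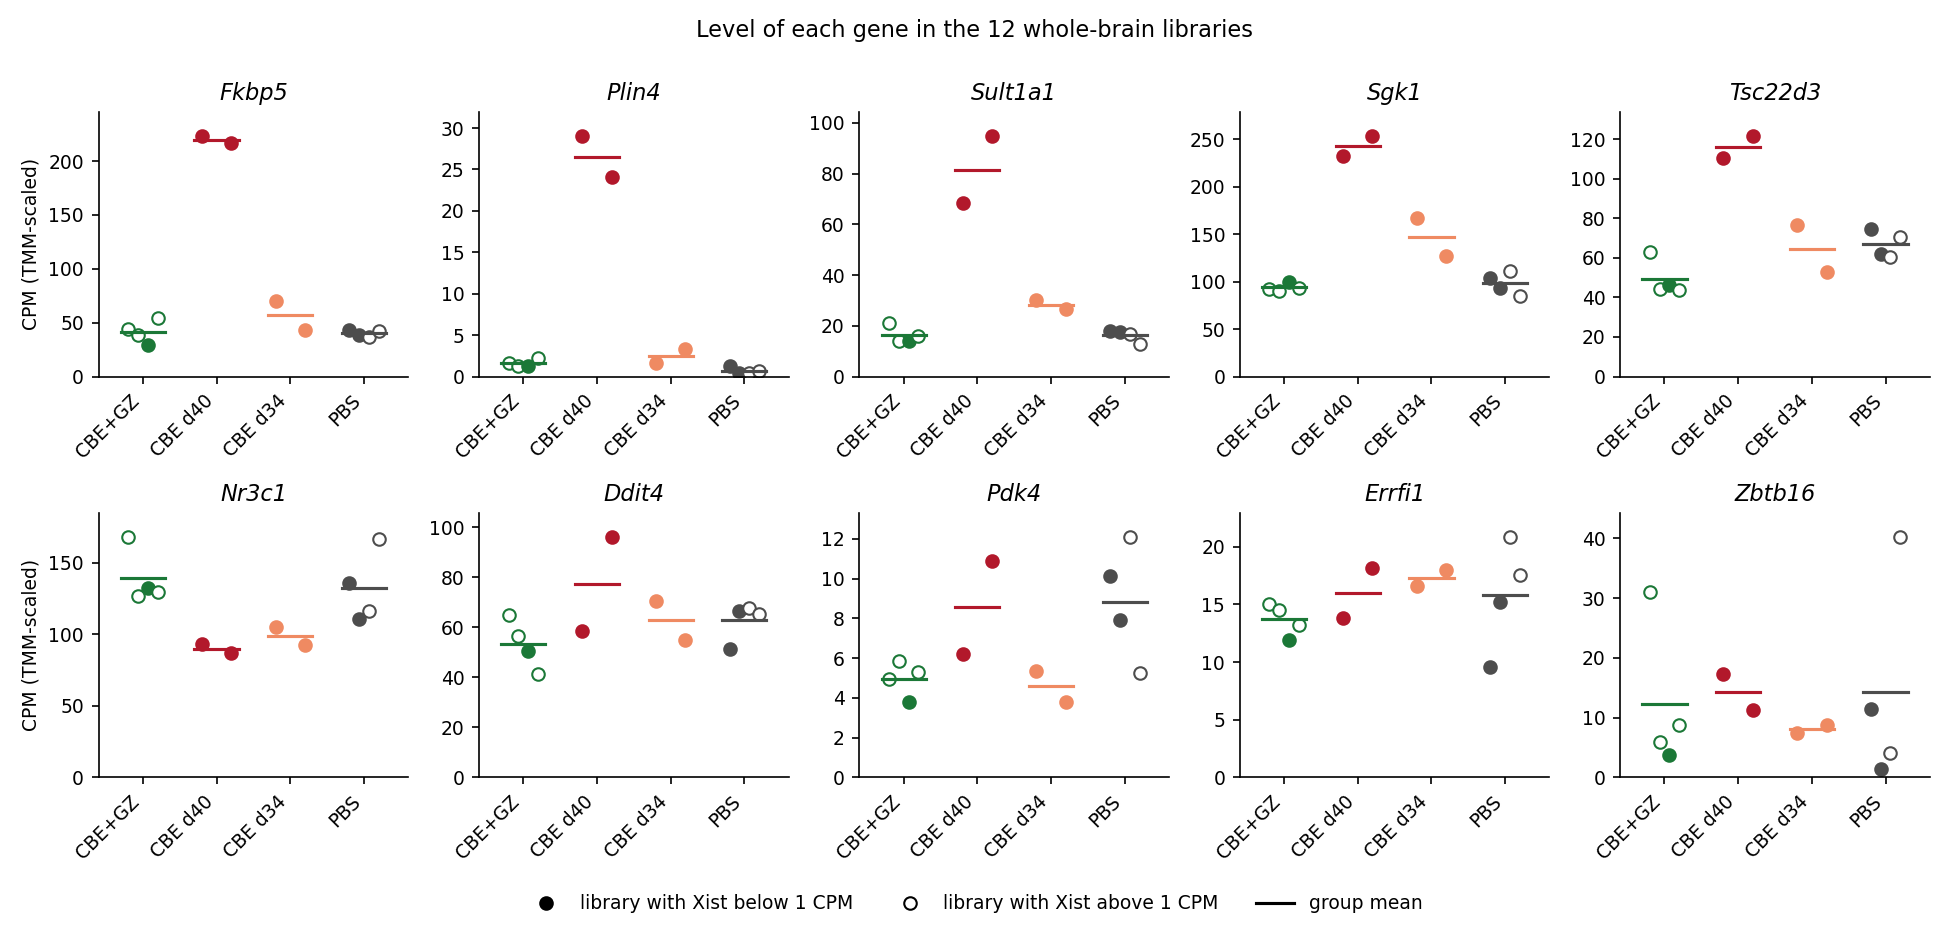
CPM of each of the 10 genes in the 12 libraries, by group, with a point per library, a bar at the group mean and open points for libraries with Xist above 1 CPM. In the top row the day 40 CBE libraries stand above the rest, for Fkbp5 at 223 and 217 CPM, while Nr3c1 is lower in the 4 CBE libraries than in all others.

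Because all CBE libraries had little Xist, the differences were also taken among the 7 libraries with low Xist, an alternative chosen after seeing the data. Day 40 CBE against PBS was then 2.43 for Fkbp5, 2.21 for Sult1a1, 1.31 for Sgk1 and 0.77 for Tsc22d3, all still called (highest adjusted p = 0.028). Plin4 stood at 4.93 there in the filtered fit, which it entered through its day 40 CBE counts. Under 21 alternatives the calls of Fkbp5, Sult1a1 and Sgk1 in day 40 CBE against PBS were each kept, with a highest adjusted p of 0.0077. Marker levels of other cell types moved in part with CBE. The summed level of 8 microglial markers was 1665 to 2975 CPM in CBE+GZ-667161, 2767 and 2782 CPM in day 40 CBE, 3454 and 4158 CPM in day 34 CBE and 807 to 902 CPM in PBS. The sum of 8 astrocyte markers was 3639 to 3910 CPM in CBE+GZ-667161, 4284 and 4317 CPM in day 40 CBE, 3841 and 4235 CPM in day 34 CBE and 3595 to 4263 CPM in PBS. Endothelial and pericyte markers summed to 336 to 480 CPM in CBE+GZ-667161, 288 and 307 CPM in day 40 CBE, 340 and 370 CPM in day 34 CBE and 366 to 428 CPM in PBS. Of 8 markers each, 6 microglial and 3 astrocyte markers were called higher in day 40 CBE against PBS, beside 8.15% of all tested genes. Called lower there were 4 neuron markers, 2 endothelial and pericyte markers and 1 oligodendrocyte marker, beside 6.08% of all tested genes. The part of cell makeup in the levels of the 10 genes was not tested.

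The remaining induced genes did not follow Fkbp5. Ddit4, an inhibitor of mTOR signalling (chromosome 10, 59949669 to 59951834, minus strand), had 41.5 to 64.8 CPM in CBE+GZ-667161, 58.4 and 96.1 CPM in day 40 CBE, 70.6 and 55.0 CPM in day 34 CBE and 51.3 to 67.9 CPM in PBS. Only 1 of the day 40 CBE libraries, replicate 6, lay above the PBS range, and the difference of day 40 CBE from PBS was 0.31 ± 0.21 (adjusted p = 0.35). Pdk4, a kinase that switches off pyruvate dehydrogenase (chromosome 6, 5483351 to 5496309, minus strand), had 3.77 to 5.86 CPM in CBE+GZ-667161, 6.22 and 10.9 CPM in day 40 CBE, 5.35 and 3.81 CPM in day 34 CBE and 5.24 to 12.1 CPM in PBS. Its difference was 0.0049 ± 0.36 (adjusted p = 0.9955). Errfi1, a feedback inhibitor of the EGF receptor (chromosome 4, 150853919 to 150868892, plus strand), had 11.9 to 15.1 CPM in CBE+GZ-667161, 13.8 and 18.2 CPM in day 40 CBE, 16.6 and 18.0 CPM in day 34 CBE and 9.57 to 20.8 CPM in PBS. It differed between day 40 CBE and PBS by 0.04 ± 0.27 (adjusted p = 0.94).

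Zbtb16, which encodes a transcriptional repressor with zinc fingers (chromosome 9, 48654297 to 48836222, minus strand), varied most within groups. It had 31.0, 5.86, 3.77 and 8.83 CPM in CBE+GZ-667161 libraries, 17.3 and 11.2 CPM in day 40 CBE libraries, 7.49 and 8.71 CPM in day 34 CBE libraries, and 11.4, 1.499, 4.17 and 40.2 CPM in PBS libraries. Within PBS alone the libraries spanned a range wider than any difference between groups, and the standard error of day 40 CBE against PBS was 0.90 (−0.10, adjusted p = 0.96). Its 2 highest libraries, PBS replicate 5 and CBE+GZ-667161 replicate 2, were also the 2 with the most Xist (18.3 and 25.4 CPM) and had 103 and 326 CPM of Ttr, and the part of these in its spread was not tested.

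Nr3c1 encodes the glucocorticoid receptor and is the only one of the 10 called lower in CBE. Its level was 168, 127, 132 and 130 CPM in CBE+GZ-667161 libraries, 93.3 and 86.8 CPM in day 40 CBE libraries, 105 and 92.6 CPM in day 34 CBE libraries, and 136, 111, 117 and 167 CPM in PBS libraries. Each of the 4 CBE libraries lay below each of the 8 others. The difference of CBE from PBS was −0.48 ± 0.14 over both days (adjusted p = 0.040) and −0.55 ± 0.17 at day 40 (adjusted p = 0.045), and CBE+GZ-667161 exceeded day 40 CBE by 0.62 ± 0.17 (adjusted p = 0.048). These calls sat close to the threshold. Among the low-Xist libraries the 3 values were −0.37, −0.44 and 0.55, with adjusted p of 0.26, 0.14 and 0.20. Leaving out single libraries gave −0.54 to −0.34, −0.62 to −0.42 and 0.52 to 0.68, and ended the call in 7, 10 and 10 of 12 cases.

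The day 40 and day 34 CBE brains were compared to see whether the 10 genes differed between these ages under the same agent. Fkbp5 and Sult1a1 were higher at day 40, by 1.92 ± 0.25 (adjusted p = 0.0065) and 1.49 ± 0.24 (adjusted p = 0.017), and Plin4 was higher by 3.43 ± 0.50 with no filter (adjusted p = 0.0076). Few genes differed between the days at all, with 0.224% of 13372 genes called higher and 0.389% lower. Sgk1 differed by 0.69 ± 0.16 (adjusted p = 0.068) and Tsc22d3 by 0.81 ± 0.21 (adjusted p = 0.087), and neither was called. The 2 libraries of each day did not overlap in these genes, nor in Pdk4 and Zbtb16. The share of all tested genes so separated was not taken. Age and the extent of CBE treatment cannot be told apart here, since no other group had day 34 libraries. With 1 of the 2 libraries of a day left out, that day has 1 library, whose spread is taken from the other groups, and calls were lost while the differences stayed of like size. Fkbp5 was not called without CBE replicate 3 (1.65, adjusted p = 0.13) or replicate 4 (1.93, adjusted p = 0.052). In the filtered fit Plin4 was not called without CBE replicate 2 (2.997, adjusted p = 0.072), replicate 3 (4.02, adjusted p = 0.13) or replicate 4 (3.28, adjusted p = 0.11). Sult1a1 was not called without CBE replicate 2, 3, 4 or 6 (1.27 to 1.73, adjusted p = 0.072, 0.24, 0.052 and 0.093).

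Day 34 CBE against PBS showed a smaller set of changes. Plin4 aside, 2 of the genes were called higher and none lower, against 5.04% and 0.867% of all tested genes. This comparison differs in age as well as in agent. Sgk1 rose by 0.63 ± 0.14 (adjusted p = 0.012) and Sult1a1 by 0.85 ± 0.23 (adjusted p = 0.034). Fkbp5 stood at 0.53 ± 0.22 (adjusted p = 0.21) and Plin4 at 1.75 ± 0.60 with no filter (adjusted p = 0.13). Tsc22d3 stood at −0.01 ± 0.18 (adjusted p = 0.99). The Sgk1 call was lost without CBE replicate 2 (0.39, adjusted p = 0.33). The Sult1a1 call was lost without PBS replicate 4 or 5 (0.84 and 0.72), CBE replicate 2 or 3 (0.74 and 0.89) or CBE+GZ-667161 replicate 5 (0.83), with adjusted p of 0.068, 0.090, 0.26, 0.17 and 0.052. Among the low-Xist libraries neither was called (Sgk1 0.61, adjusted p = 0.078; Sult1a1 0.71, adjusted p = 0.15).

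The next question was how these genes stood when GZ-667161 was given with CBE. Against the age-matched day 40 CBE libraries, Plin4 changed by −4.10 ± 0.37 with no filter (adjusted p = 1.1e-05), Fkbp5 by −2.43 ± 0.20 (adjusted p = 8.2e-06), Sult1a1 by −2.33 ± 0.20 (adjusted p = 1.1e-05), Sgk1 by −1.38 ± 0.13 (adjusted p = 5.5e-05) and Tsc22d3 by −1.24 ± 0.17 (adjusted p = 0.00089). In each of these 5 genes the 4 CBE+GZ-667161 libraries lay below both day 40 CBE libraries. This restates the differences above and is no separate support, and the share of all tested genes so separated was not taken. Plin4 aside, 4 of 9 genes were called lower and 1, Nr3c1, higher, against 3.1% and 2.76% of 13372 genes. Calls of Fkbp5, Sult1a1 and Sgk1 held in 21 alternatives (highest adjusted p = 0.024). With CBE+GZ-667161 replicate 4 as the only treated library of low Xist, the differences were −2.90 for Fkbp5, −4.36 for Plin4 (filtered fit), −2.54 for Sult1a1, −1.28 for Sgk1 and −1.33 for Tsc22d3. The spread there comes from the other groups alone, so these values say nothing of variation among mice given GZ-667161. This comparison and that of day 40 CBE with PBS share the 2 day 40 CBE libraries, so they are not independent.

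Against PBS, the CBE+GZ-667161 libraries gave no call for 9 tested genes of the 10. Of all 12623 tested genes 3.11% were called higher and 0.333% lower there, so no call among 9 genes is near those shares. At an unadjusted p under 0.05 edgeR had 1 of the 9, Pdk4 (−0.79 ± 0.34, adjusted p = 0.31). At an adjusted p under 0.05 edgeR, DESeq2 and limma-voom each called 0. The differences came with 95% intervals (9 degrees of freedom) of −0.82 to 0.89 for Fkbp5, −0.44 to 0.33 for Sgk1, −0.72 to 0.76 for Sult1a1, −0.89 to 0.03 for Tsc22d3 and −0.24 to 0.39 for Nr3c1. Differences within these intervals are not excluded by the data. Tsc22d3 was on the low side, with 3 of the 4 CBE+GZ-667161 libraries (43.7 to 46.1 CPM) under the PBS minimum of 60.4 CPM. Plin4, not tested here for low counts, gave 1.09 ± 0.87 with no filter (adjusted p = 0.74).

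**Figure D2:**
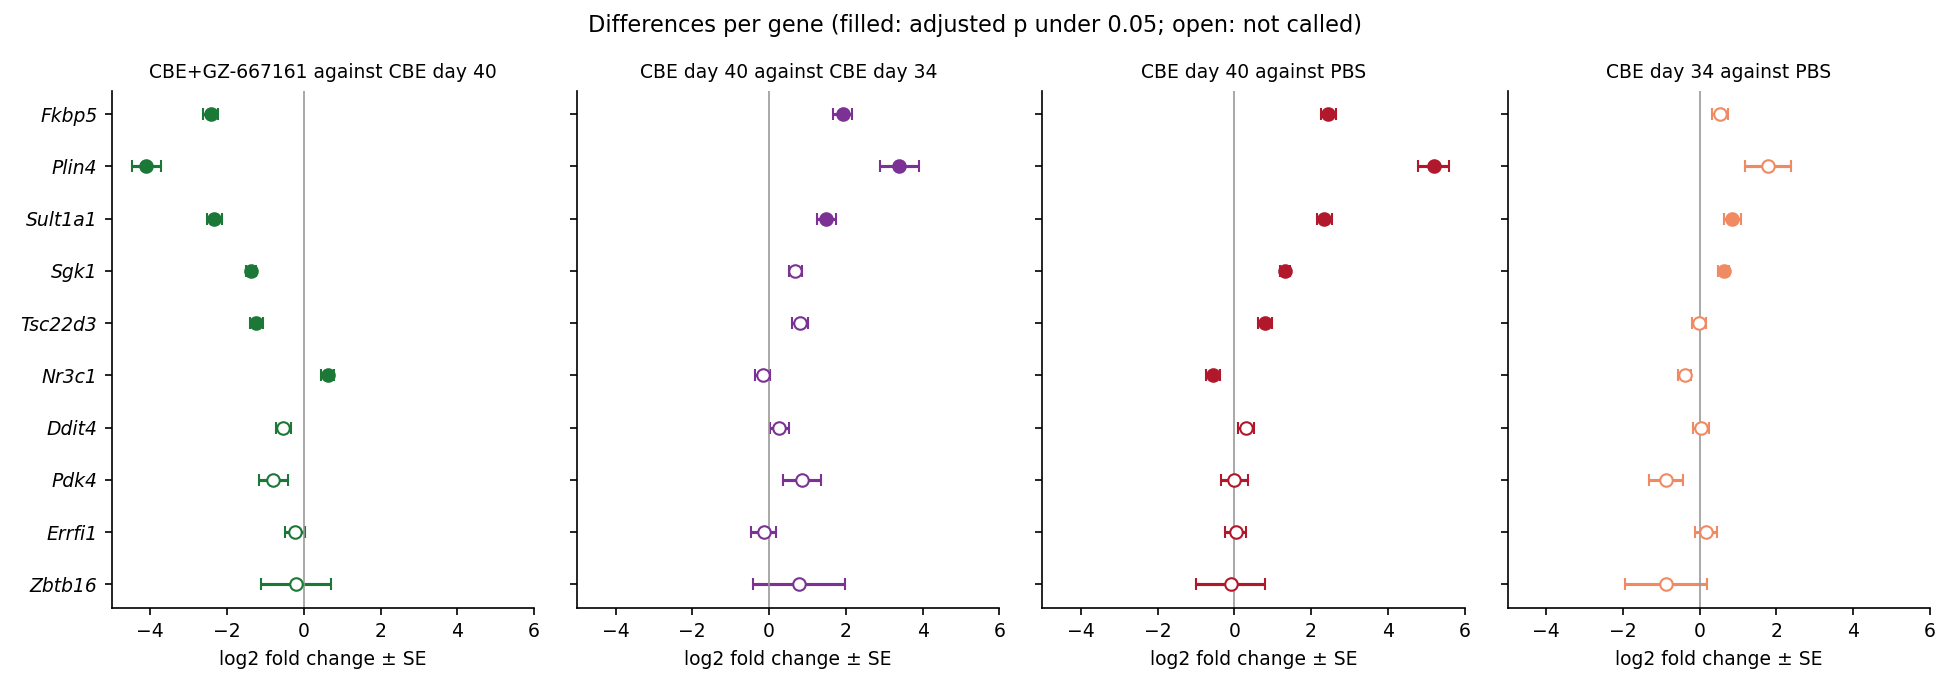
Log2 fold change ± SE of each of the 10 genes in 4 comparisons, with filled points for an adjusted p under 0.05. Plin4 values are from the filtered fit. Plin4, Fkbp5, Sult1a1, Sgk1 and Tsc22d3 lie to the left in CBE+GZ-667161 against CBE day 40 and to the right in CBE day 40 against PBS, and Ddit4, Pdk4, Errfi1 and Zbtb16 have open points throughout.

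Over the whole CBE group of both ages the same genes had wide spreads. Fkbp5 averaged 41.6 ± 10.6 CPM in CBE+GZ-667161, 138 ± 94.9 CPM in CBE and 40.3 ± 2.999 CPM in PBS (SD, n = 4 each). CBE against PBS called Fkbp5, Sgk1 and Sult1a1 higher and Nr3c1 lower, where 6.95% and 4.04% of 12623 genes were called, and Sult1a1 rose by 1.81 ± 0.32 (adjusted p = 0.0011). Tsc22d3 stood at 0.46 ± 0.20 (adjusted p = 0.17) and was called without CBE replicate 3 (0.64, adjusted p = 0.023). Plin4 stood at 4.37 ± 0.72 with no filter (adjusted p = 0.00056). Among the low-Xist libraries only Sgk1 was still called (1.01, adjusted p = 0.041). The authors' deposited table, which gives PBS over CBE, likewise had adjusted p under 0.05 for 4 of the 10, among them Plin4 at −4.39 and not Nr3c1 (adjusted p = 0.088 in the authors' deposited table).

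CBE+GZ-667161 against the whole CBE group called 4 of 9 tested genes lower and none higher, where 0.832% and 0.444% of 12623 genes were called. These were Sult1a1 (−1.79 ± 0.32, adjusted p = 0.015), Fkbp5 (−1.78 ± 0.38, adjusted p = 0.032), Sgk1 (−1.07 ± 0.17, adjusted p = 0.010) and Tsc22d3 (−0.89 ± 0.21, adjusted p = 0.044). The authors' deposited table, as CBE over CBE with GZ-667161, had adjusted p under 0.05 for these 4 and for Plin4. Fkbp5 was not called without CBE replicates 4 or 6, or CBE+GZ-667161 replicates 2, 3 or 4 (−1.82 to −1.46, adjusted p = 0.11, 0.11, 0.069, 0.090 and 0.12), nor Sgk1 without CBE+GZ-667161 replicate 4 (−1.11, adjusted p = 0.055). Sult1a1 was not called without CBE replicates 4 or 6 or CBE+GZ-667161 replicates 3 or 4 (−1.73 to −1.40, adjusted p = 0.064, 0.056, 0.056 and 0.078), and Tsc22d3 lost its call without PBS replicates 2, 3 or 4, CBE replicates 4 or 6 or CBE+GZ-667161 replicates 3, 4 or 5 (−0.90 to −0.72, adjusted p from 0.050 to 0.16). With Xist as a covariate, or among the low-Xist libraries, none of the 4 was called, at differences of −1.82 and −2.25 for Fkbp5, −0.94 and −0.98 for Sgk1, −0.88 and −0.99 for Tsc22d3 and −1.60 and −2.003 for Sult1a1, and only 1 CBE+GZ-667161 library had low Xist.

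The same comparisons were read over 30 other genes known to be induced by glucocorticoids, all tested. In day 40 CBE against PBS 16 of the 30 were higher and none lower (median 0.73, against −0.02 over all tested genes), in day 34 CBE against PBS 5 were higher and none lower (median 0.29), and in CBE+GZ-667161 against day 40 CBE 15 were lower and none higher (median −0.75). The shares of all tested genes called in these directions were 8.15%, 5.04% and 3.1%. In the whole CBE group 12 were higher than in PBS and none lower (median 0.50), against 6.95% of all tested genes, with 7 higher without CBE replicate 6 and 5 among the low-Xist libraries. The list was chosen with earlier results of these data known. Some of its genes are also induced by cytokines, as Lcn2, Cebpd, Mt1 and Mt2 are. Leaving out CBE replicate 4 brought the 15 to 8, and the low-Xist libraries gave 15 higher for day 40 CBE against PBS and 8 lower for CBE+GZ-667161 against day 40 CBE.

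Between the CBE ages 4 of the 30 were higher at day 40 and none lower, namely Cdkn1a, Mt1, Mfsd2a and Fam107a, beside 0.224% and 0.389% of all tested genes. Cdkn1a, which encodes the cell-cycle inhibitor p21, had 61.0 to 99.4 CPM in CBE+GZ-667161, 210 and 231 CPM in day 40 CBE, 62.6 and 70.8 CPM in day 34 CBE and 69.5 to 122 CPM in PBS. Like Fkbp5, it was set apart in the day 40 CBE libraries only (1.69 ± 0.25 over day 34, adjusted p = 0.0096). Mfsd2a, a lysolipid transporter of the blood-brain barrier, had 40.0 to 58.4 CPM in CBE+GZ-667161, 123 and 102 CPM in day 40 CBE, 49.2 and 43.0 CPM in day 34 CBE and 43.8 to 66.4 CPM in PBS (1.26 ± 0.22 over day 34, adjusted p = 0.025). Fam107a, an actin-associated protein gene, had 323 to 469 CPM in CBE+GZ-667161, 802 and 920 CPM in day 40 CBE, 521 and 350 CPM in day 34 CBE and 356 to 463 CPM in PBS (0.95 ± 0.20, adjusted p = 0.044). Arrdc2 and Sesn1 were next, at 1.01 ± 0.29 (adjusted p = 0.12) and 0.74 ± 0.23 (adjusted p = 0.14). The count of 4 fell to 1, 0, 0 and 2 without CBE replicates 2, 3, 4 and 6.

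The metallothionein genes Mt1 and Mt2 rose at both ages. Mt1 had 2154 to 2707 CPM in CBE+GZ-667161, 7635 and 7876 CPM in day 40 CBE, 4300 and 3327 CPM in day 34 CBE and 1773 to 2057 CPM in PBS, with no overlap between any of these 4 sets. It differed between the CBE ages by 0.99 ± 0.15 (adjusted p = 0.0096). Mt2 rose by 2.31 ± 0.16 in day 40 CBE (adjusted p = 3.4e-07) and by 1.74 ± 0.16 in day 34 CBE (adjusted p = 2.4e-06), both against PBS. The lipocalin gene Lcn2 had 13.02 to 80.4 CPM in CBE+GZ-667161, 361 and 325 CPM in day 40 CBE, 115 and 85.5 CPM in day 34 CBE and 2.93 to 4.50 CPM in PBS. Cebpd, a transcription factor gene, had 10.9 to 21.6 CPM in CBE+GZ-667161, 40.8 and 27.4 CPM in day 40 CBE, 50.3 and 40.8 CPM in day 34 CBE and 6.85 to 11.3 CPM in PBS, so it was not higher at the later age. Both were called above PBS in CBE+GZ-667161 (Lcn2 3.06 ± 0.68, adjusted p = 0.014; Cebpd 0.99 ± 0.25, adjusted p = 0.039), the only 2 of the 30 called there, beside 3.11% of all tested genes. The lowest CBE+GZ-667161 library of Cebpd lay within the PBS range, and the count of 2 was 0 with limma-voom and among the low-Xist libraries, 1 with only the compared groups fitted or with Xist as a covariate, and 1 without any 1 of PBS replicates 2, 3, 4 and 5, CBE replicate 4 and CBE+GZ-667161 replicates 2, 4 and 5.

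Other standard targets were not called. Per1, a clock gene with rapid hormone induction, had 53.0 to 89.3 CPM in CBE+GZ-667161, 102 and 71.3 CPM in day 40 CBE, 130 and 84.4 CPM in day 34 CBE and 69.4 to 176 CPM in PBS, and its difference for day 40 CBE against PBS was −0.32 ± 0.31 (adjusted p = 0.54). Dusp1, a phosphatase gene, stood at −0.44 ± 0.34 (adjusted p = 0.43) and Klf9, a transcription factor gene, at 0.37 ± 0.24 (adjusted p = 0.36) in the same comparison. None of these 3 was called in any of the 7 comparisons. The looser element occurred in 0.475% of all promoter windows and, in this list of 26 genes with windows, in Map3k6 (chr4:133240627-133240659, plus strand), Fam107a (chr14:8309875-8309907, minus strand) and Mt1 (chr8:94178985-94179017, plus strand). Each of these was called higher in day 40 CBE against PBS, but so were 16 of the 30 listed genes, so these calls say little of the match. The stretches are printed with capitals for the match, for comparison with the Sgk1 element above.
Map3k6: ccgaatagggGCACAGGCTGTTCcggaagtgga
Fam107a: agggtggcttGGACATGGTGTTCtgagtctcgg
Mt1: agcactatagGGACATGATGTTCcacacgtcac
These began 181, 118 and 94 bases before the start, and Map3k6, named for this match, rose by 1.72 ± 0.30 in day 40 CBE against PBS (adjusted p = 0.0014).

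**Figure D3:**
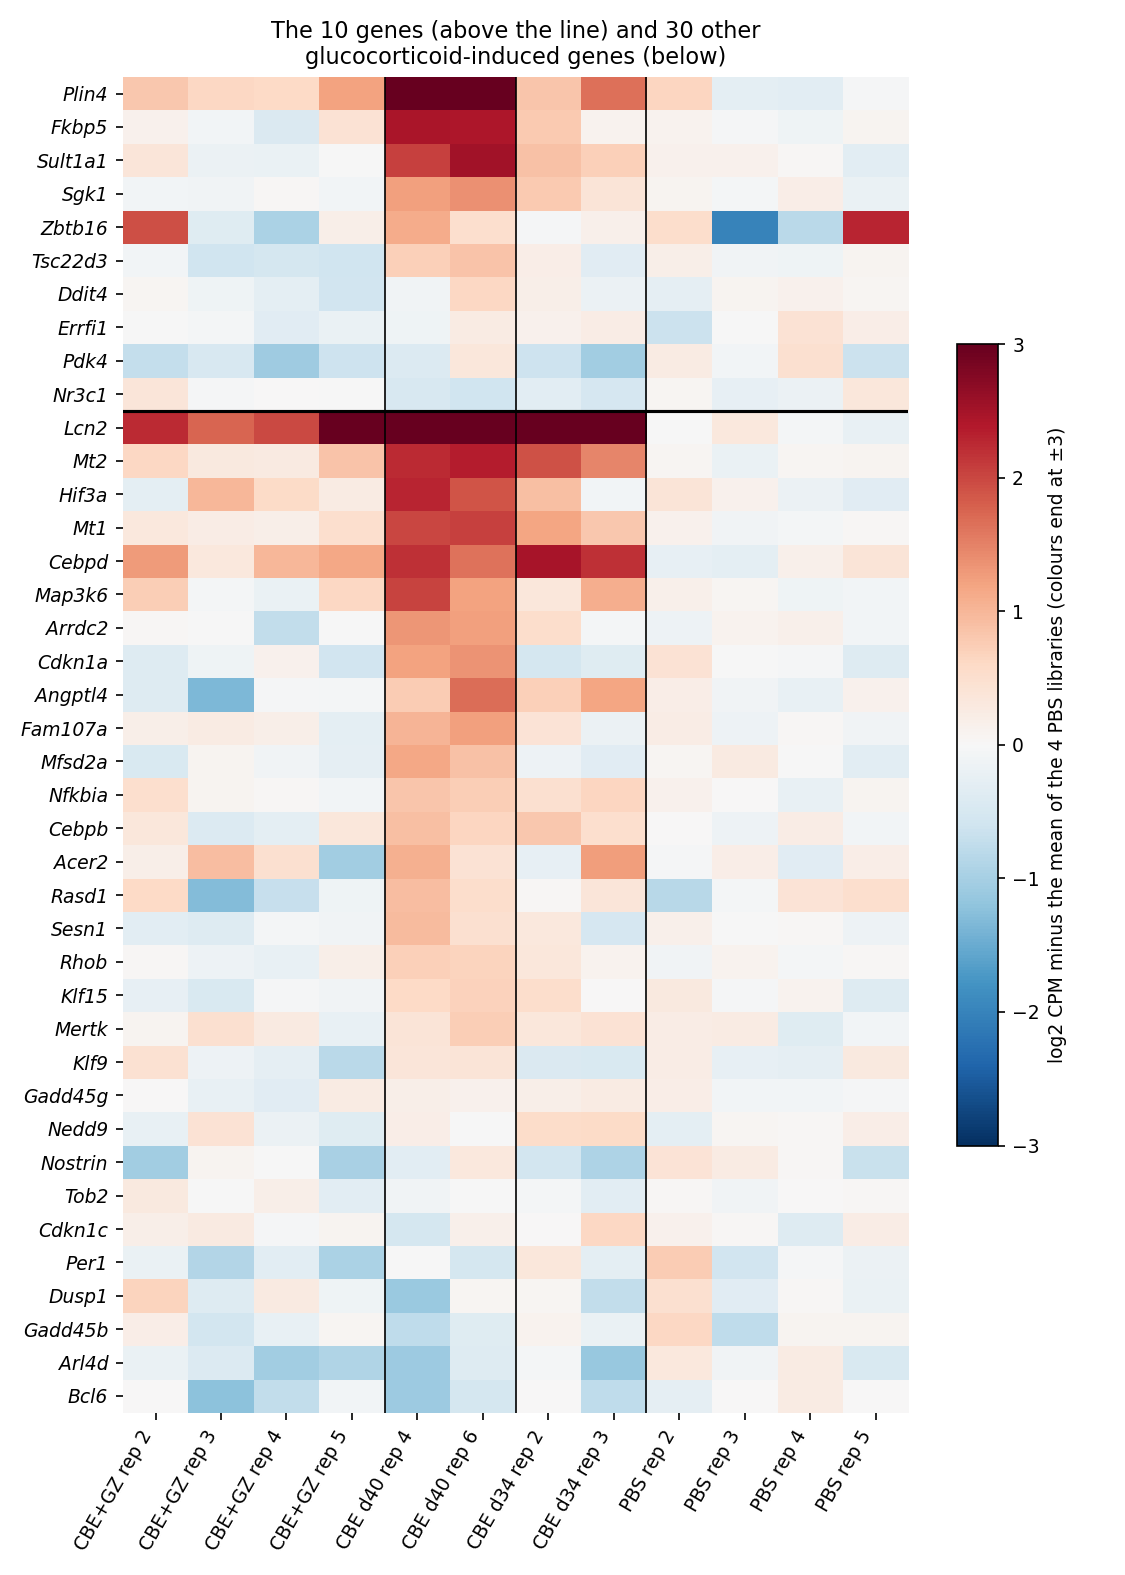
Log2 CPM of the 10 genes (above the line) and of 30 other glucocorticoid-induced genes (below) in each library, minus the mean of the 4 PBS libraries, in red where higher and blue where lower. Plin4, Fkbp5 and Sult1a1 are darkest in the 2 day 40 CBE columns, while Lcn2 and Cebpd are red in all CBE columns and, mostly paler, in the CBE+GZ-667161 columns.

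Of 20 receptor chaperone and cofactor genes, 3 were lower and none higher in CBE against PBS (median −0.33, against −0.01 over all tested genes, of which 4.04% were called lower). Fkbp4, the Hsp90 co-chaperone that assists the receptor where Fkbp5 restrains it, had 139 to 157 CPM in CBE+GZ-667161, 145 and 140 CPM in day 40 CBE, 157 and 137 CPM in day 34 CBE and 190 to 241 CPM in PBS. It was lower than PBS in CBE (−0.51 ± 0.11, adjusted p = 0.0049) and also in CBE+GZ-667161 (−0.45 ± 0.11, adjusted p = 0.022), and CBE+GZ-667161 against day 40 CBE stood at 0.08 ± 0.13 (adjusted p = 0.75). Hspa8 and Stip1, named after their values were seen, were the other 2 (−0.59 ± 0.11, adjusted p = 0.0025, and −0.42 ± 0.11, adjusted p = 0.021). Hsp90aa1 stood at −0.70 ± 0.35 (adjusted p = 0.23) and Nr3c2, the mineralocorticoid receptor gene, at 0.22 ± 0.37 (adjusted p = 0.76).

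Hsd11b1, whose enzyme regenerates active corticosterone, stood at −0.15 ± 0.27 in CBE against PBS (adjusted p = 0.79). In that comparison 6.95% of all tested genes were called higher and 4.04% lower. Of 7 tested genes of steroid metabolism and transport, Tspo was higher (2.25 ± 0.20, adjusted p = 1.2e-06) and Cyp11a1 lower (−1.54 ± 0.39, adjusted p = 0.017) in CBE against PBS. Both are named after their values were seen, and Tspo is also a transcript of activated microglia, whose markers rose as given above. Crh, the hypothalamic peptide gene that starts the stress axis, had 6.51 to 15.3 CPM in CBE+GZ-667161, 4.84 and 10.6 CPM in day 40 CBE, 11.2 and 4.90 CPM in day 34 CBE and 15.2 to 23.1 CPM in PBS. It was lower in CBE than in PBS (−1.15 ± 0.32, adjusted p = 0.028), with all 4 CBE libraries under all 4 PBS libraries. Crhr1, a receptor for that peptide named after its values were seen, was the other called gene among 6 tested of the stress axis list (−0.93 ± 0.23, adjusted p = 0.016), beside the 4.04% of all tested genes called lower.

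Fkbp5 was last used as a template. Each gene's log2 CPM was standardized over the 12 libraries, and likeness was the root mean square difference from Fkbp5 in SD units, over 13371 other genes. Sult1a1 ranked 7 (0.32), Plin4 15 (0.35), Sgk1 28 (0.40) and Tsc22d3 144 (0.54), while Ddit4, Zbtb16, Pdk4, Errfi1 and Nr3c1 ranked from 2273 to 12127. Since the day 40 CBE libraries dominate the Fkbp5 profile, likeness mostly reads whether a gene is high in these 2 libraries. Among the closest genes outside the 10 were Mrpl41, Scn10a, Rhob and Cirbp (0.26 to 0.31). Scn10a, a sodium channel gene, had 17 and 12 counts in day 40 CBE, 2 and 0 in day 34 CBE and at most 1 in every other library. Like Plin4, Scn10a passed the low-count filter only through the day 40 CBE libraries, so the high ranks of both were largely set by how they entered. Mrpl41, a mitochondrial ribosome gene, had 96.2 to 121 CPM in CBE+GZ-667161, 212 and 187 CPM in day 40 CBE, 129 and 101 CPM in day 34 CBE and 108 to 120 CPM in PBS. Cirbp, which encodes a cold-inducible RNA-binding protein, had 92.5 to 129 CPM in CBE+GZ-667161, 358 and 288 CPM in day 40 CBE, 206 and 115 CPM in day 34 CBE and 91.5 to 106 CPM in PBS. Rhob, a small GTPase gene that is also on the list of 30, had 126 to 167 CPM in CBE+GZ-667161, 243 and 235 CPM in day 40 CBE, 187 and 158 CPM in day 34 CBE and 137 to 160 CPM in PBS.

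**Figure D4:**
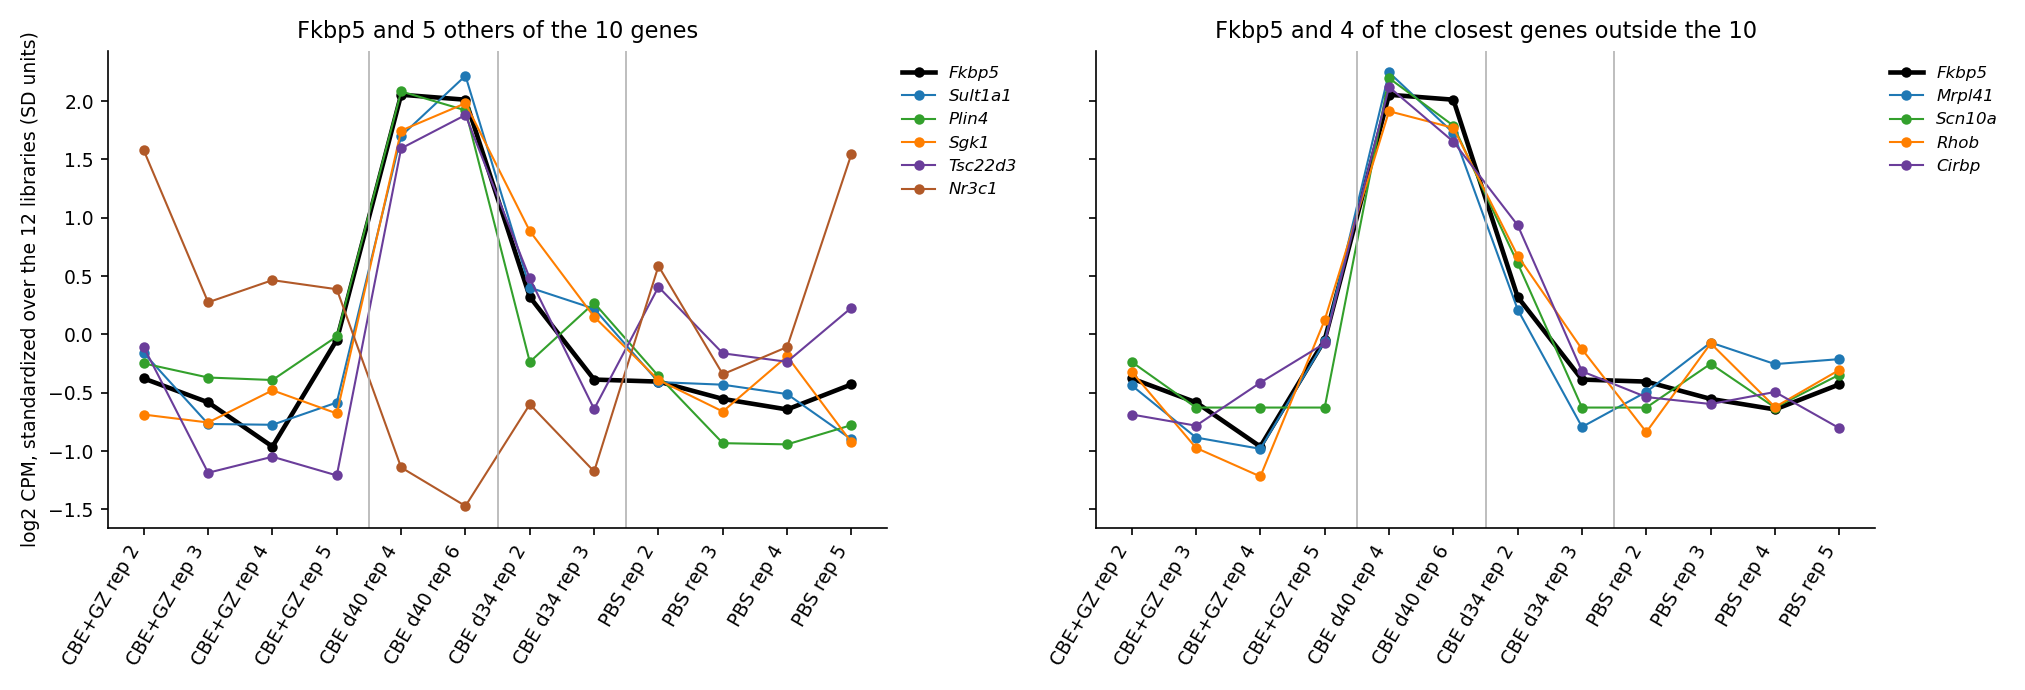
Log2 CPM standardized over the 12 libraries, in SD units, for Fkbp5 (black) with 5 other genes of the 10 (left) and with 4 of the closest genes outside them (right), in the order of the library names on the axis; lines only join the points of 1 gene. All but Nr3c1 peak in the 2 day 40 CBE libraries, and Nr3c1 is lowest in the CBE libraries.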

How the data were processed

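Bulk MARS-seq libraries of 12 mouse brain samples were analysed. The deposited table holds raw read counts per gene symbol, per the file headers. HISAT (version 0.1.6), cutadapt, HTSeq and DESeq2 and the build mm10 are named in the submitters' processing notes, with no roles or settings given. The authors' deposited table also holds log2 fold changes and p-values, per the file headers, used only where named. Entries whose symbols had turned into dates (23, with 0.266 to 0.347% of counts) were left out.

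Counts were tested with edgeR 4.0.16 in R 4.3.3: TMM scaling, a low-count filter (minimum count 10, minimum total 15), glmQLFit, and Benjamini-Hochberg adjustment over all tested genes. A fit of CBE+GZ-667161, CBE and PBS held 12623 genes, and a fit with CBE split by age held 13372. DESeq2 1.42.0, limma 3.58.1 and other scalings, filters, covariates and left-out libraries were alternatives. The restriction to libraries with low Xist was chosen after seeing the data. The fits were tested on simulated data. The 10 genes and the lists were chosen with earlier results of these data known. Named were all 10 genes; of the 30 other induced genes, the 6 with the smallest p between the CBE ages, the 4 with the smallest p in CBE against PBS, and Per1, Dusp1 and Klf9; Nr3c2, Hsd11b1, Fkbp4, Hsp90aa1 and Crh; and the 5 genes closest to Fkbp5, of which 1 is not reported here. Any other gene was chosen after its values were seen.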

Additional observations from a re-analysis of the deposited data

Results flagged for a closer look

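In 3 of 30 groups of 4 libraries tested, 1 library stood apart from the rest by Dixon's criterion, which chance meets in about 1 in 20 groups. Tsc22d3 had 63.0 CPM in CBE+GZ-667161 replicate 2, against 43.7 to 46.1 CPM in the other CBE+GZ-667161 libraries. Nr3c1 had 168 CPM in the same library, against 127 to 132 CPM in the others. Ddit4 had 51.3 CPM in PBS replicate 2, against 65.3 to 67.9 CPM in the other PBS libraries. Day 40 and day 34 CBE libraries differed in Fkbp5 (1.92), Plin4 (3.40, tested only through its day 40 CBE counts) and Sult1a1 (1.49, log2 fold changes), and with no day 34 PBS library the difference between the ages could not be set against untreated mice.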

How the results depend on the processing

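Counts of calls here include Plin4 in the comparisons that split CBE by age. Calls among the 10 genes in day 40 CBE against PBS, CBE+GZ-667161 against day 40 CBE and CBE+GZ-667161 against PBS moved little (4 to 6, 5 to 6 and 0 with single libraries left out). CBE+GZ-667161 against CBE gave 4 calls, 2 with only the compared groups fitted, 0 with Xist as a covariate, 1 with the replicate block, 0 among low-Xist libraries and 0 to 6 with a library left out. CBE against PBS gave 4, 1 among low-Xist libraries and 3 to 5 with a library left out. Day 40 against day 34 CBE gave 3, 5 by DESeq2, 1 with the replicate block and 0 to 4 with a library left out. Day 34 CBE against PBS gave 2, 1 without a filter, with limma-voom, with Xist as a covariate or with the replicate block, 0 among low-Xist libraries and 0 to 2 with a library left out. Same-numbered libraries deviated little together, with 1 of 10 correlations over 0.1 (0.24, for replicate 3 of CBE+GZ-667161 and PBS). The main fits did not pair libraries by number. This check cannot exclude a pairing, since deviations within CBE also hold the difference between the ages. The cause of the moves in the counts of calls was not tested.

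Sign changes occurred in values that were not called, and the cause was not tested. For CBE+GZ-667161 against CBE, Zbtb16 was −0.39 with limma-voom, −1.91 with Xist, −0.62 with the block and −1.59 among low-Xist libraries, and Pdk4 was 0.029 with the block. For CBE against PBS, Zbtb16 was 0.35, 1.084, 0.87 and 0.87 under the same settings, and Ddit4 −0.061 with the block. For CBE+GZ-667161 against PBS, Fkbp5 was −0.034 with limma-voom and −0.47 among low-Xist libraries, Sgk1 0.03 and Sult1a1 −0.33 among low-Xist libraries, and Zbtb16 0.25 and Sult1a1 −0.0078 with the block. For day 40 against day 34 CBE, Ddit4 was −0.11 with the block. For day 40 CBE against PBS, Zbtb16 was 0.63, 1.55, 2.25 and 1.19 under limma-voom, Xist, block and low-Xist settings, Pdk4 −0.011 with library totals, −0.0045 without a filter, −0.027 with Xist, −0.57 with the block and −0.059 among low-Xist libraries, and Ddit4 −0.12 and Errfi1 −0.27 with the block. For day 34 CBE against PBS, Tsc22d3 was 0.010 with library totals and 0.0079 with Xist, Zbtb16 0.47 with Xist and 0.40 among low-Xist libraries, and Ddit4 −0.012 with the block. For CBE+GZ-667161 against day 40 CBE, Errfi1 was 0.11 with the block.

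With single libraries left out, values spanned 0 as follows. For CBE against PBS, Ddit4 was −0.0085 to 0.28, Errfi1 −0.052 to 0.24 and Zbtb16 −0.75 to 1.03. For day 34 CBE against PBS, Ddit4 was −0.17 to 0.17, Tsc22d3 −0.33 to 0.19 and Zbtb16 −1.27 to 0.53. For day 40 against day 34 CBE, Ddit4 was −0.11 to 0.61 and Errfi1 −0.33 to 0.065. For day 40 CBE against PBS, Ddit4 was −0.086 to 0.62, Errfi1 −0.16 to 0.22, Pdk4 −0.45 to 0.35 and Zbtb16 −0.47 to 1.33. For CBE+GZ-667161, Zbtb16 was −0.97 to 0.43 against CBE and −1.29 to 0.16 against day 40 CBE. Against PBS, Fkbp5 was −0.12 to 0.19, Nr3c1 −0.032 to 0.21, Sgk1 −0.12 to 0.011, Sult1a1 −0.14 to 0.10 and Zbtb16 −1.36 to 1.15.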

Other observations

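A list of 15 clock and clock-output genes was added after seeing the data. In day 40 CBE against PBS 4 were higher (Cry1, Cry2, Tef and Ciart) and none lower, and in CBE+GZ-667161 against day 40 CBE 4 were lower and none higher, beside 8.15% of all tested genes called higher in the first and 3.1% called lower in the second. Cry2, a repressor of the clock, was also higher in day 40 than in day 34 CBE (0.87 ± 0.16, adjusted p = 0.027). It was the only 1 of the 15 called there, beside 0.224% of all tested genes called higher and 0.389% lower. In day 34 CBE against PBS, Dbp (0.94) and Ciart (1.03) were called higher and Arntl (−0.93) lower. The median of the 15 was 0.15 there, and 5.04% of all tested genes were called higher and 0.867% lower. No label states the hour of collection, whose part in these values was not tested.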
